A study of Mus musculus with 3 samples.

Results

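Purine signalling in mouse brain is described here through 9 genes in 3 libraries of ribosome-bound RNA. They were taken by symbol: the ATP-gated channel genes P2rx4 and P2rx7, the nucleotide receptor genes P2ry1 and P2ry6, the adenosine receptor gene Adora1, the surface nucleotidase genes Entpd1, Entpd2 and Nt5e, and the adenosine kinase gene Adk. All 9 were among the 16610 genes listed and among the 14906 whose mean over the libraries reached 20. The control library came from right hemispheres of mice without occlusion. The contralateral library came from the right, and the MCAO library from the left hemisphere of mice whose middle cerebral artery had been occluded for 1 h (middle cerebral artery occlusion, a stroke model). Each library pooled 3 animals killed after 3 days, with 2 technical replicates and repeated pull-downs combined, and held only the middle section of the hemisphere. RNA was collected by RiboTag pull-down, in which tagged ribosomes are precipitated from the cells that express the tag. The series title refers to astrocytes, but the labels name no driver of the tag and no strain, age or sex.

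ATP and other nucleotides leave cells during activity and injury and act on P2X ion channels and on the G protein-coupled P2Y receptors. Ectonucleotidases on the cell surface then cut them step by step: the products of Entpd1 (CD39) and Entpd2 remove phosphates from ATP, and that of Nt5e (CD73) turns AMP into adenosine. Adenosine acts on its own receptors, of which the one encoded by Adora1 inhibits transmitter release, and is cleared by uptake and by adenosine kinase, which in adult brain is mainly astrocytic.

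Recovered depth lay between 25930258 and 33886604 reads per library. With 1 library per group no difference has a replicate check, and no p-value is given. Values are normalised read counts, each triplet in the order control, contralateral, MCAO. Ratios carry 95% exact Clopper-Pearson intervals, which cover counting error only: no molecular identifiers are named, so reads may be copies of one molecule, and animals were not measured singly. The lowest of 10 astrocyte markers was at 1522 and the lowest of 8 neuron markers at 3806 in any library, so that neuronal transcripts were present too. Summed levels were 4600.4, 5524 and 21049 for 15 microglia and macrophage markers and 7791, 7554 and 17932 for 9 homeostatic microglia markers. Male germ cell markers, 7 in all, summed to 29.1, 8102 and 19.997, which sets the contralateral library apart. In RNA pulled down from pooled tissue, fewer cells of a type, less RNA per cell and a difference in what the pull-down caught cannot be told apart. No library of RNA before the pull-down was used here. Brain side cannot be told apart from occlusion either, since both comparison libraries are right hemispheres.

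Among the 9 genes, P2ry6 alone exceeded both right hemispheres by 2-fold or more in the MCAO library, and 0 were 2-fold below both. Differences were taken on log2(value + 5), which understates those of low genes. Of all 14906 genes 2.58% were that much above and 0.517% that much below, so the share of the members rests on 1 gene. Leaving the contralateral library out and using the control alone, the counts were again 1 and 0, beside 4.12% and 1.25% of all genes. No member was 2-fold apart between the contralateral library and the control (0 above, 0 below), where 5.17% of all genes lay above and 0.362% below. The median difference of the 9 genes was -0.02 (MCAO minus control), 0.09 (MCAO minus contralateral) and -0.22 (contralateral minus control), next to -0.0027, -0.0020 and -0.0037 over all genes.

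**Figure D1:**
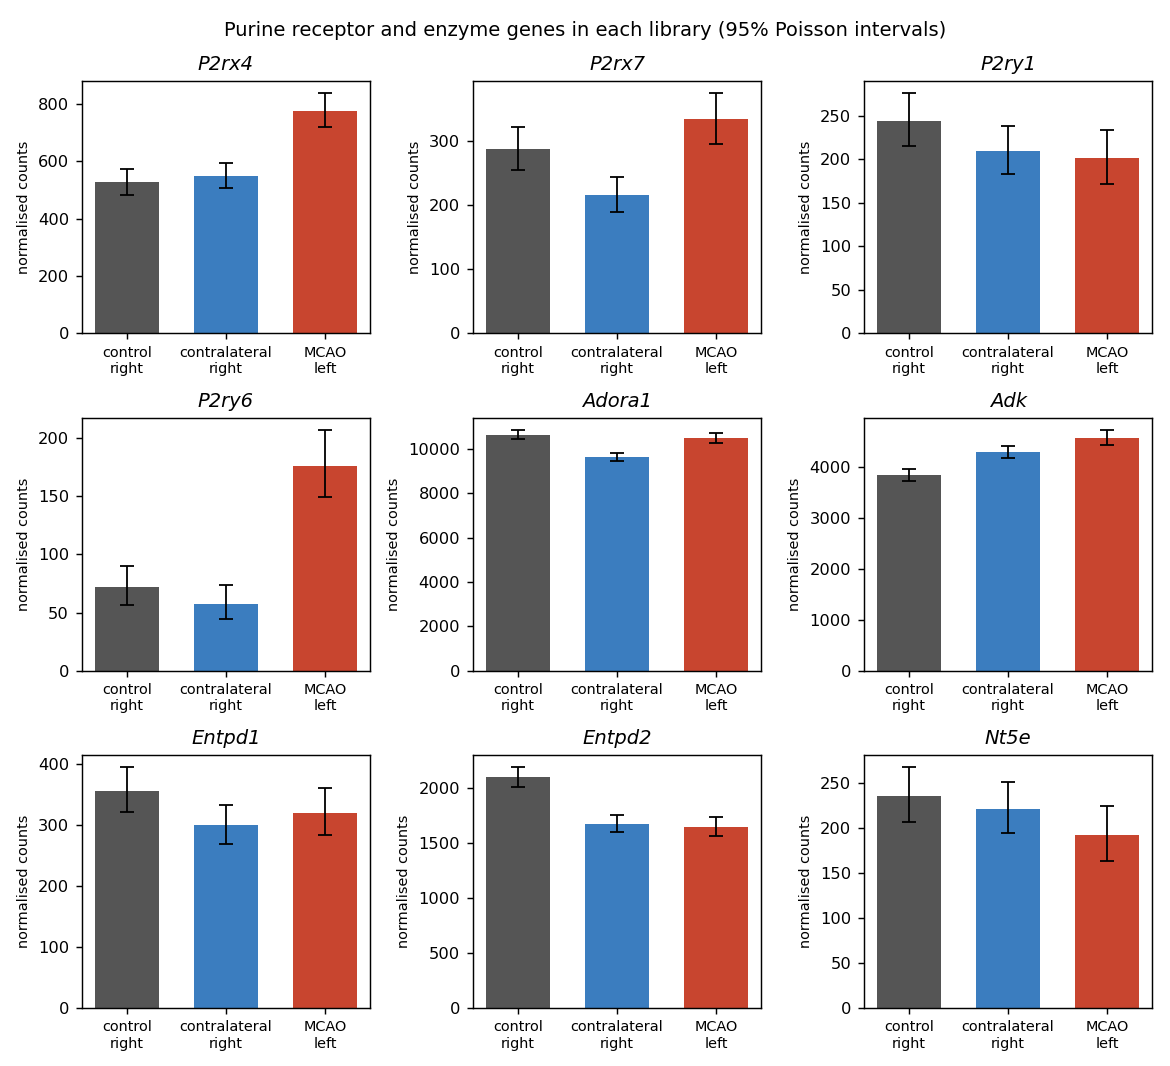
Normalised read counts (linear axis from 0, own scale per panel) of the 9 genes, 1 bar per library with its 95% Poisson interval. P2ry6 stands at 176 in the MCAO library against 71.7 and 57.7, while Adora1 lies between 9629 and 10649 in all 3.

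Smaller differences were read from the intervals. For MCAO over control the interval lay above 1 for 3 members (P2rx4, P2ry6 and Adk) and below 1 for 2 (Entpd2 and Nt5e), beside 30.0% and 29.9% of all genes. For MCAO over contralateral it lay above 1 for 5 members (P2rx4, P2rx7, P2ry6, Adora1 and Adk) and below 1 for 0, beside 25.6% and 25.4%. For contralateral over control it lay above 1 for 1 member (Adk) and below 1 for 4 (P2rx7, Adora1, Entpd1 and Entpd2), beside 28.7% and 29.4%. Each library enters 2 of these comparisons.

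**Figure D2:**
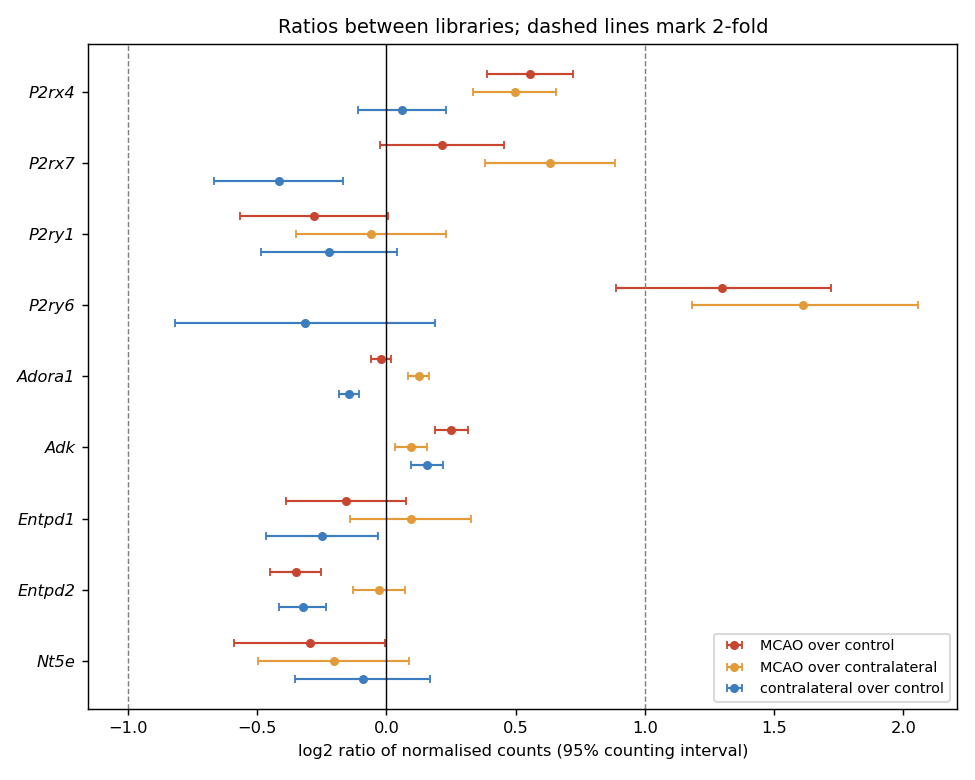
Log2 ratios between libraries for the 9 genes, 1 point per comparison with its 95% counting interval and dashed lines at 2-fold. Both P2ry6 ratios of the MCAO library lie beyond 2-fold, although the interval over the control starts at 1.85-fold.

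P2ry6 encodes the P2Y6 receptor for UDP, known in microglia for triggering uptake of debris (GRCm38.p6 chromosome 7, 100937630 to 100975498). Its levels were 71.7 (control), 57.7 (contralateral) and 176 (MCAO), from 74, 65 and 150 reads. The MCAO library was the high one: its Poisson interval, 149 to 207, did not overlap those of the control, 56.3 to 90.0, and of the contralateral library, 44.5 to 73.5. It reached 2.46-fold (1.85 to 3.298) over control and 3.06-fold (2.27 to 4.16) over contralateral. The right hemispheres did not separate at this depth, with a ratio of 0.805 (0.568 to 1.14).

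P2ry2, a receptor gene for ATP and UTP, starts 21069 bp beyond the end of P2ry6 on the same chromosome (100996568 to 101012053). Its levels were 39.7 (control), 29.3 (contralateral) and 59.99 (MCAO). The MCAO library was again the highest, 1.51-fold (0.982 to 2.34) over control and 2.05-fold (1.30 to 3.28) over contralateral, but fell short of 2-fold against both on the log2(value + 5) scale.

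Microglial markers were higher in the same library as P2ry6, and their part in its difference was not tested. Of the 15 microglia and macrophage markers 14 exceeded both right hemispheres 2-fold; the exception was Aif1, at 79.4 (control), 259 (contralateral) and 159 (MCAO). Of the 9 homeostatic markers 5 did, among them Cx3cr1 and Gpr34, and no marker of either list was at the listed minimum of 1. Median differences from the control were 2.80 and 1.12 on the log2 scale for these lists, next to 1.24 for P2ry6.

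Other P2Y genes known from microglia did not differ 2-fold. P2ry12, also among the homeostatic markers above, encodes an ADP receptor that guides microglial processes. It was at 405 (control), 382 (contralateral) and 418 (MCAO). MCAO was 1.03-fold (0.893 to 1.19) over control and 1.09-fold (0.946 to 1.26) over contralateral. P2ry13, a related ADP receptor gene, was at 185 (control), 159 (contralateral) and 199.97 (MCAO). For it MCAO was 1.08-fold (0.874 to 1.34) over control and 1.26-fold (1.01 to 1.56) over contralateral, the latter interval lying above 1. P2ry14, whose receptor binds UDP-sugars, was at 20.3 (control), 23.1 (contralateral) and 25.9 (MCAO).

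**Figure D3:**
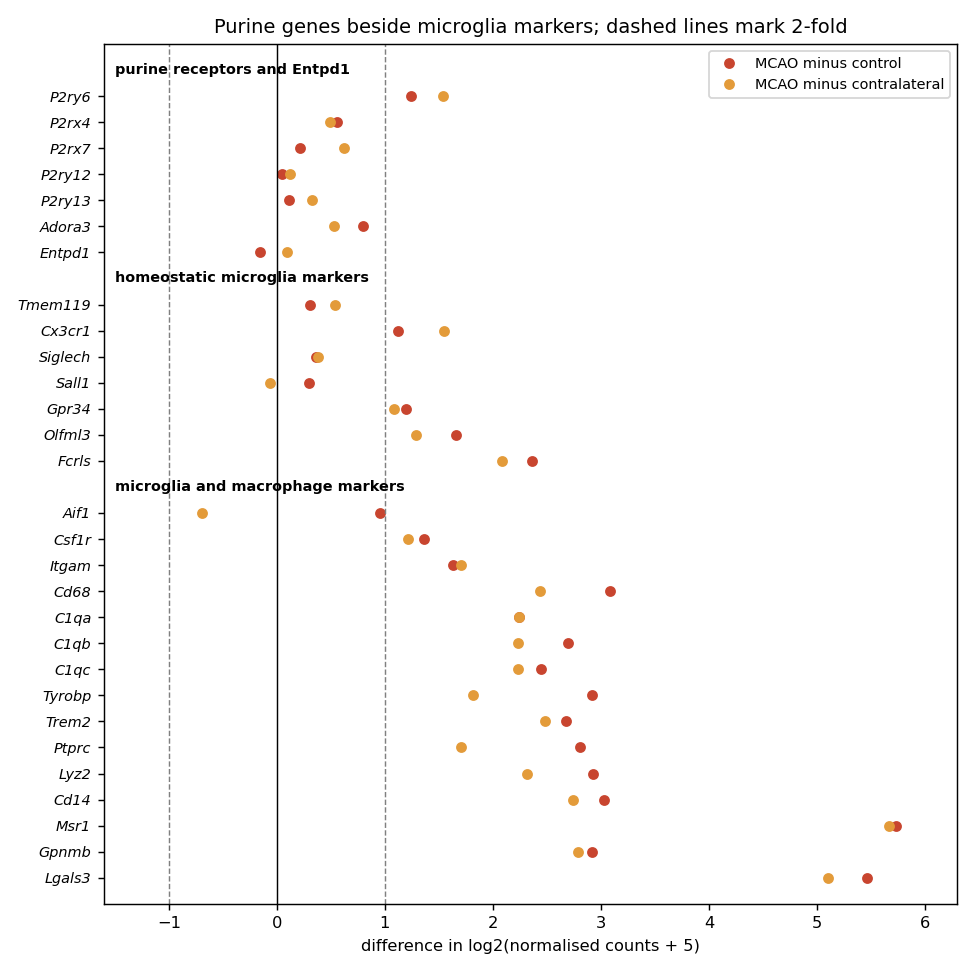
MCAO minus control and MCAO minus contralateral, in log2(normalised counts + 5), for 7 purine genes above microglia markers (P2ry12 drawn once, with the purine genes, and 1 marker not drawn); dashed lines mark 2-fold. P2ry6, at 1.24 and 1.53, lies near Cx3cr1 and Gpr34, while P2ry12 and Entpd1 lie near 0 and P2ry13 at 0.11 and 0.32.

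P2rx7 and P2rx4 are neighbours on chromosome 5, at 122643927 to 122692336 and 122707518 to 122729739, with 15181 bp between them. Both encode ATP-gated cation channels; that of P2rx7 needs high ATP and is known for releasing interleukin 1 beta from microglia. The 250 bases before an annotated transcript start are shown for both, since the contralateral to control ratio was below 1 for P2rx7 and near 1 for P2rx4, and for Entpd2, the member with the lowest MCAO to control ratio. The sequences come from RefSeq (GRCm38.p6), plus strand, 5′ to 3′; a further annotated start within P2rx7 is not shown. The P2rx4 window ends at 122707543, past the start of the gene's annotated span at 122707518, so that its last bases lie inside the span, while the P2rx7 and Entpd2 windows end just before the span. Capitals mark matches on either strand to any of 6 motifs searched: GGGCGG (GC box), CCAAT (bound by NF-Y), TGAGTCA (AP-1 type), TTCNNNGAA (STAT type), GAGGAAGT (ETS type) and TATAAA.
P2rx7 (chr5:122643677-122643926): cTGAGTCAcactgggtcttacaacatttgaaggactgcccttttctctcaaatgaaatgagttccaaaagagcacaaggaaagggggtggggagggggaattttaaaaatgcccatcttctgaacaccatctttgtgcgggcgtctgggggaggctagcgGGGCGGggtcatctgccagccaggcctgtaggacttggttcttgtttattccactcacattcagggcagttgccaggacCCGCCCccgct
P2rx4 (chr5:122707294-122707543): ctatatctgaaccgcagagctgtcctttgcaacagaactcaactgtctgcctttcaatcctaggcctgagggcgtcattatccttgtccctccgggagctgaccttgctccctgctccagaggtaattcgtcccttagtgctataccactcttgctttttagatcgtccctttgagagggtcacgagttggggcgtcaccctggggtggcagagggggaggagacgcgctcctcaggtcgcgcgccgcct
Entpd2 (chr2:25395624-25395873): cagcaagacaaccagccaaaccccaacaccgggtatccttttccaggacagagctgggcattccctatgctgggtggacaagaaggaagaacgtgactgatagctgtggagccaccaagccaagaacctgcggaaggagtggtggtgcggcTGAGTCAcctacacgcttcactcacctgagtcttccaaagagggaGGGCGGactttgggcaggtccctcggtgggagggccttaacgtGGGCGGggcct

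Of the windows shown, those of P2rx7 and Entpd2 each hold 2 GC boxes and 1 AP-1 type match, and that of P2rx4 holds 0 of the 6 motifs. The further P2rx7 window, at 122650133 to 122650382, also holds 0 of them. The windows shown contain 6 (P2rx7), 9 (Entpd2) and 13 (P2rx4) CG dinucleotides. Over 32851 windows of this length GGGCGG occurs in 32.7%, CCAAT in 33.8%, TGAGTCA in 4.46%, TTCNNNGAA in 7.02%, GAGGAAGT in 2.44% and TATAAA in 12.4%. The table held 12 windows for 8 of the 9 members; 7 of these hold GGGCGG, 4 CCAAT, 2 TGAGTCA and 0 any of the other motifs. These are descriptions of the letters, not binding sites.

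P2rx4 stood at 527 (control), 549 (contralateral) and 775 (MCAO) normalised counts. MCAO was above both others, which lay close together: 1.47-fold (1.31 to 1.65) over control and 1.41-fold (1.26 to 1.58) over contralateral, against 1.04-fold (0.927 to 1.17) between the right hemispheres. The annotation overlaps P2rx4 with Camkk2, at 7255 (control), 5794 (contralateral) and 5708 (MCAO), which was lower in the MCAO library than in the control. No source used here states the strand, so reads of the overlap cannot be assigned.

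P2rx7 stood at 287 (control), 215 (contralateral) and 333 (MCAO), and here contralateral was the low library, 0.749-fold (0.629 to 0.891) of control. MCAO was 1.55-fold (1.30 to 1.85) over contralateral but 1.16-fold (0.983 to 1.37) over control, so these last did not separate at this depth. Sums of several marker lists followed the same order, lowest in the contralateral and highest in the MCAO library: endothelial (969, 713 and 1236), mural (2813, 2264 and 3390.0), oligodendrocyte (123619, 103141 and 157419) and homeostatic microglia (7791, 7554 and 17932). Of the median levels of these lists, that of the homeostatic microglia markers followed it and those of the other 3 lists did not, the mural median being 151, 175 and 142. Median log2 differences from the control, contralateral then MCAO, were -0.40 and 0.20 for the endothelial and -0.34 and 0.12 for the mural list. They were -0.10 and 0.35 for the oligodendrocyte and -0.01 and 1.12 for the homeostatic microglia list, next to -0.41 and 0.21 for P2rx7. Sums of the remaining marker lists did not follow the order of P2rx7. Those of microglia and macrophage markers (4600.4, 5524 and 21049) and of oligodendrocyte precursor markers (9215, 10074 and 12595) were lowest in the control. The part of these cell types in the P2rx7 value was not tested. The male germ cell markers of that library were likewise not tested for a part in it.

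P2ry1 encodes an ADP receptor that raises calcium in astrocytes (chromosome 3, 61002785 to 61008982). Its levels were 244 (control), 209 (contralateral) and 201 (MCAO), highest in the control. No pair of libraries separated: the ratios were 0.824 (0.675 to 1.005) for MCAO over control, 0.858 (0.715 to 1.03) for contralateral over control and 0.961 (0.784 to 1.17) for MCAO over contralateral.

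All 3 surface nucleotidase members were highest in the control. Entpd2, whose product favours ATP over ADP (chromosome 2, 25395874 to 25401323), was at 2096 (control), 1674 (contralateral) and 1643 (MCAO). Both hemispheres of the occluded animals lay below the control, contralateral at 0.799-fold (0.751 to 0.850) and MCAO at 0.784-fold (0.733 to 0.839), and they did not separate from each other, at 0.981-fold (0.915 to 1.05).

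Entpd1 (chromosome 19, 40612366 to 40741602), known in brain from microglia and vessels, was at 356 (control), 299.9 (contralateral) and 319.9 (MCAO). Contralateral was 0.841-fold (0.724 to 0.978) of control, and MCAO, 0.898-fold (0.765 to 1.05), did not separate from it. Its MCAO value was thus not above the control, where 14 of 15 microglia and macrophage markers and 5 of 9 homeostatic microglia markers were at least 2-fold higher. Differences from the control in the homeostatic list went down to 0.04 on the log2 scale. The part of these cells in the Entpd1 value was not tested.

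Nt5e (chromosome 9, 88327609 to 88372089) was at 235 (control), 221 (contralateral) and 192 (MCAO), from 243, 249 and 163 reads. MCAO was the lowest, 0.815-fold (0.664 to 0.998) of control, an interval whose upper end lies just under 1, and 0.868-fold (0.708 to 1.06) of contralateral. Of 8 striatal neuron markers 5 were at least 2-fold below both right hemispheres in the MCAO library, with sums of 31143, 29221 and 12444; their part in the Nt5e value was not tested.

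Adora1 (chromosome 1, 134199215 to 134235457) was at 10649 (control), 9629 (contralateral) and 10497 (MCAO), with 8924 reads or more per library. MCAO and control did not separate, at 0.986-fold (0.958 to 1.01), and contralateral was slightly lower, 0.904-fold (0.880 to 0.929) of control. Its family differed more widely. Adora2a, the gene of a stimulatory adenosine receptor of striatal neurons, was at 2140.4 (control), 1694 (contralateral) and 389 (MCAO), 0.182-fold (0.162 to 0.204) of control in the MCAO library, which also had the low striatal markers; their part was not tested. Adora2b, a low-affinity receptor gene, was at 345 (control), 286 (contralateral) and 286 (MCAO). Adora3 was at 24.2 (control), 30.2 (contralateral) and 45.9 (MCAO), from 25, 34 and 39 reads. MCAO was 1.89-fold (1.12 to 3.27) over control but did not separate from contralateral, at 1.52-fold (0.935 to 2.48).

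Adk, which phosphorylates adenosine to AMP (chromosome 14, 21052574 to 21448569), was at 3854 (control), 4295 (contralateral) and 4585 (MCAO). It was lowest in the control and highest in the MCAO library: 1.19-fold (1.14 to 1.24) for MCAO over control, 1.11-fold (1.07 to 1.16) for contralateral over control and 1.07-fold (1.02 to 1.11) for MCAO over contralateral. Nuclear and cytoplasmic forms of the enzyme share this gene and are not separated in the table.

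Lists of 71 purine genes by role gave the wider pathway; 64 were listed and 61 reached the minimum mean. In the MCAO library 2 of them were 2-fold above both right hemispheres, P2ry6 and Xdh, and 2 were 2-fold below, Adora2a and Lrrc8b, where 2.58% and 0.517% of all genes were; the count above is near that share, and neither count was tested. Xdh, encoding the enzyme that makes uric acid, was at 51.3 (control), 59.4 (contralateral) and 182 (MCAO), 3.55-fold (2.58 to 4.95) for MCAO over control. Lrrc8b, encoding a subunit of volume-regulated anion channels, was at 822 (control), 909 (contralateral) and 351 (MCAO), 0.426-fold (0.372 to 0.487). Between contralateral and control 0 of the 61 were 2-fold apart in either direction, beside 5.17% of all genes above and 0.362% below.

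The 7 ectonucleotidase genes past the minimum all lay below the control in the MCAO library, by differences of -0.35 to -0.10 with a median of -0.22 on the log2 scale, where 50.3% of all genes lay below. Of the same 7, 6 lay below the control in the contralateral library too (median -0.09), and against the contralateral library MCAO was above for 2 and below for 5 (median -0.03). Among them Entpd3 was at 576 (control), 564 (contralateral) and 474 (MCAO) and Enpp2, encoding autotaxin, at 13514 (control), 12729.5 (contralateral) and 12528 (MCAO). Of 6 P2Y genes 5 lay above the control and 1 below, with a median of 0.20. Of 5 P2X genes past the minimum 3 lay above and 2 below. Above and below the control lay 1 and 3 of 4 adenosine receptor genes, 1 and 3 of 4 intracellular NTPDase genes, 14 and 7 of 21 genes of adenosine and purine metabolism, 0 and 4 of 4 nucleoside transporter genes, and 2 and 8 of 10 ATP release channel genes, beside 48.8% and 50.3% of all genes. Against the contralateral library the MCAO library stood otherwise in several lists: 3 of 4 adenosine receptor genes lay above and 1 below, and likewise 3 and 1 of 4 nucleoside transporter genes, 2 and 3 of 5 P2X genes, 11 and 10 of 21 metabolism genes and 4 and 6 of 10 release channel genes. The P2Y genes (5 and 1) and the intracellular NTPDase genes (1 and 3) had the same counts as against the control. P2rx3, known from sensory neurons, was at 70.7 (control), 100.3 (contralateral) and 91.7 (MCAO), highest in the contralateral library, and P2rx5 at 42.6 (control), 30.2 (contralateral) and 23.5 (MCAO), highest in the control. P2rx6 was at 164 (control), 128 (contralateral) and 124 (MCAO), again highest in the control. P2rx1, at 5.81 (control), 8.87 (contralateral) and 11.8 (MCAO), and P2rx2 missed the minimum. P2rx2 had 2, 22 and 1 reads, a contralateral to control ratio of 10.1 (2.48 to 88.4); the male germ cell markers of that library were not tested for a part in it.

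**Figure D4:**
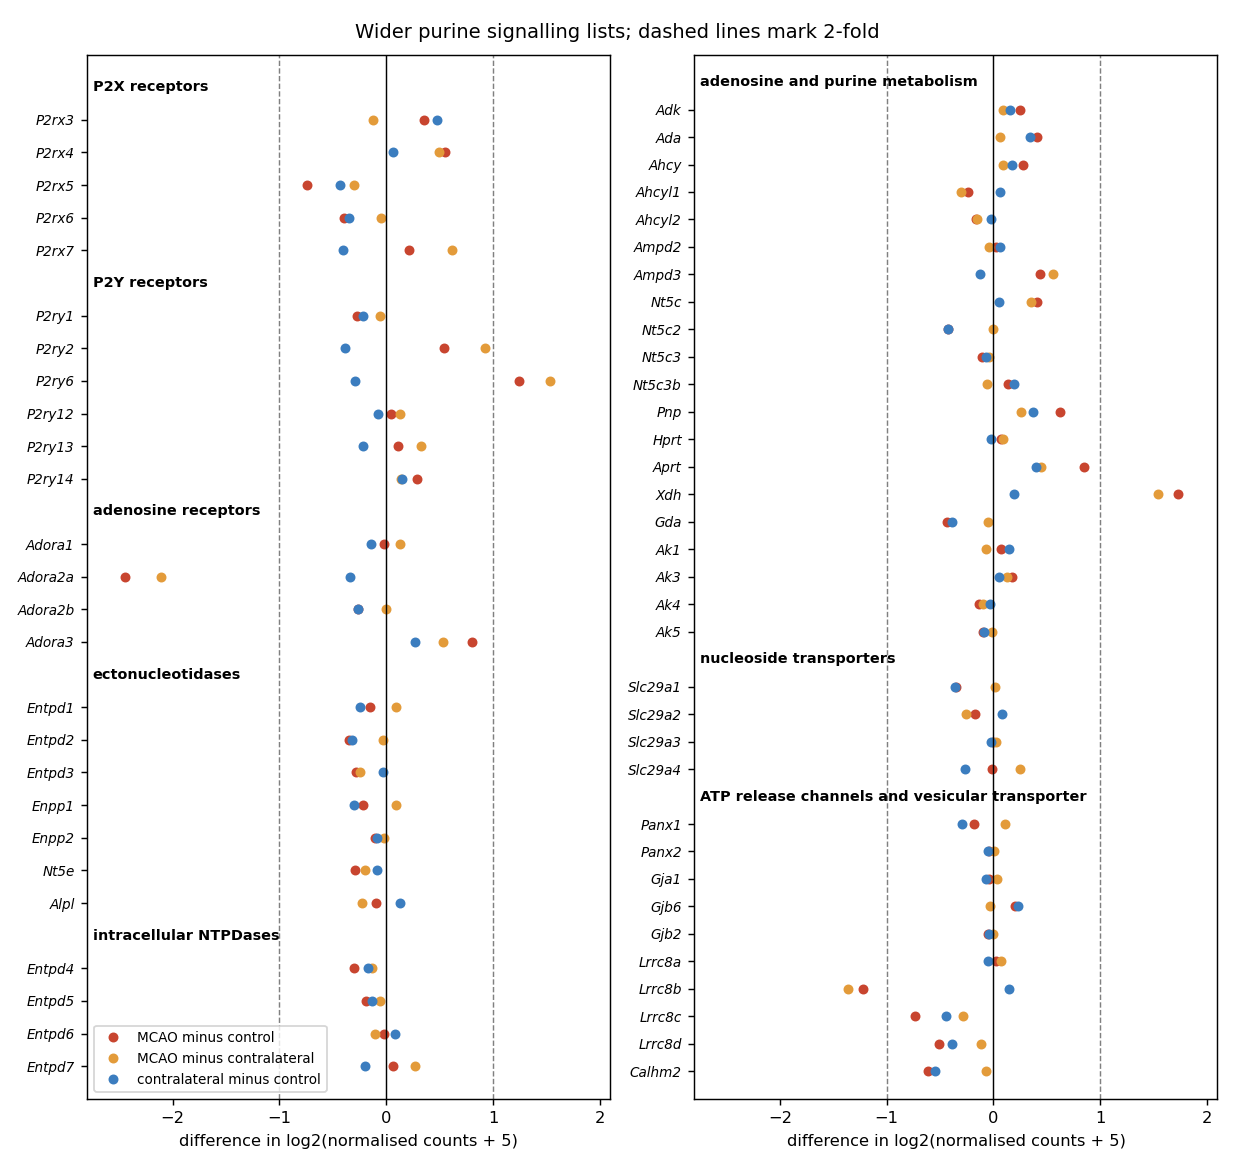
Differences in log2(normalised counts + 5) for purine genes past the minimum mean, by role, all but 1 of the 61 drawn, 1 point per comparison, with dashed lines at 2-fold. P2ry6, Xdh, Adora2a and Lrrc8b lie beyond 2-fold for the MCAO library, and the 7 ectonucleotidase genes lie below 0 against the control.

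Likeness in pattern was measured as the Euclidean distance between pairs of log2 differences (MCAO minus control, contralateral minus control) over the 3 libraries, among 14007 named genes. P2ry6 had 4 genes within a distance of 0.1. Its nearest were Cspg4, at 554 (control), 454 (contralateral) and 1276 (MCAO), Ssc5d, at 35.8 (control), 29.3 (contralateral) and 87.0 (MCAO), and Naip5, at 12.6 (control), 9.76 (contralateral) and 38.8 (MCAO), whose family has near-identical copies that make its counts uncertain. Naip5 also reached the minimum mean of 20 only through its MCAO value, so its likeness to P2ry6 carries no weight. P2rx7 had 32 within that distance, led by Tnnt2, B3galt4 and Atad2, and P2rx4 had 86, led by Htatip2, Mthfd2 and Gltp. The other 6 members had between 568 and 980 each, so 3 libraries single out no pattern for them. For every member except Adora1 the counting interval of MCAO over control, on the log2 scale, is wider than this distance. Their nearest genes are thus not fixed by these counts, and those of Adora1 lie among 980 within the distance. The interval of P2ry6 for MCAO over control runs from 1.85 to 3.298. Nearest to P2ry1 were Negr1, Rbm15b and Mpp3; to Adora1 Adipor2, Abcd2 and Ccng1; and to Adk Obfc1, Igf2r and Rps6. Nearest to Entpd1 were Zfp74, Aldh18a1 and Txndc11, to Entpd2 Ncald, Camkk2 and Tmx2, and to Nt5e Ccdc127, Vhl and Mark2. Of the cell type markers, those nearest each member lay within 0.1 for 6 members: Cspg4 (mural) for P2ry6, Tubb3 (neuron) for P2ry1, Gja1 (astrocyte) for Adora1, Mbp (oligodendrocyte) for Entpd1, Slc1a2 (astrocyte) for Entpd2 and Rbfox3 (neuron) for Nt5e. For the other 3 members no marker lay that close: the nearest were Kcnj8 (mural) at 0.17 for P2rx7, Olig1 (oligodendrocyte precursor) at 0.13 for P2rx4 and Foxj1 (ependyma and choroid plexus) at 0.12 for Adk. A nearest marker does not stand for its list or name a cell type. Of 7 mural markers only 1, Cspg4, was 2-fold above both right hemispheres in the MCAO library. The median mural difference from the control was 0.12.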

How the data were processed

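Ribosome-bound RNA was sequenced from 3 pools, 1 library per group, grouped by the labels' titles. The authors deposited a signal per gene: read counts divided by 1 size factor per library, as the values show, with anything under 1 listed as 1. CASAVA 1.8, HISAT2 2.0.11, Partek 6.6, R 3.3.1, DESeq2 and mm10 appear, without roles, in the processing notes of the submitters; strand is not given in the sources used here. Dividing each column by its step (0.969, 0.887 and 1.18 for control, contralateral and MCAO) made 99.9% of values over 1 whole to 0.1 read, and gave 31833456, 33886604 and 25930258 reads.

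Genes averaging at least 20 were compared on log2(value + 5) and called at 2-fold; ratios use deposited values, with intervals from recovered reads. No test was run. Members, lists, markers and motifs were chosen with earlier results of these data known. Named are all 9 members, list genes 2-fold apart, other receptors of their families, and the 3 genes and the marker nearest each member; further genes were named after their values were seen, and some items are not reported here. Positions are from RefSeq (GRCm38.p6; 15912 of 16610 symbols matched). Scripts were tested on simulated reads and used Python 3.11.15, numpy 2.4.6, pandas 2.3.3, scipy 1.17.1 and matplotlib 3.10.9. Alternatives were pseudocounts of 1 and 20, no minimum, library totals, median centring and a 1.5-fold threshold.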

Additional observations from a re-analysis of the deposited data

How the results depend on the processing

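Pseudocounts of 1 and 20, no minimum mean, rescaling to library totals, centring on the median difference and a 1.5-fold threshold all left the member counts at 1 above and 0 below for MCAO against both right hemispheres, and at 0 and 0 for contralateral against control. So did the control alone, an alternative chosen after seeing the data, for the MCAO counts. The wider lists gave 2 above and 2 below for MCAO in each of these. Without a minimum mean 1 gene of the wider lists, P2rx2, was 2-fold above control in the contralateral library, in place of 0. The 135 recomputed log2 differences of the members kept their sign, moved by at most 0.195, and each moved by less than the half-width of its counting interval. Dropping the minimum mean could change neither these differences nor the member counts, since all 9 members pass it. No paired analysis was possible because each group had 1 library. For the same reason no replicate could be left out, and variation between animals was not measured. Among the members depth limits P2ry6 most: counting error alone allows 1.85 to 3.298 for its MCAO to control ratio.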

Other observations

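Enzymes that recycle purine bases differed among themselves. Aprt, which returns adenine to AMP, was at 529 (control), 700.0 (contralateral) and 954 (MCAO) normalised counts, 1.804-fold (1.62 to 2.01) for MCAO over control. Pnp, which splits inosine and guanosine, was at 1614 (control), 2086 (contralateral) and 2498 (MCAO), 1.55-fold (1.45 to 1.65). The contralateral library was intermediate for both. Hprt, the salvage enzyme for hypoxanthine and guanine, was at 3524 (control), 3468 (contralateral) and 3699 (MCAO), and Gda, which deaminates guanine, at 9788 (control), 7489 (contralateral) and 7229 (MCAO), 0.739-fold (0.715 to 0.762) for MCAO over control.

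Slc29a1, encoding the nucleoside transporter ENT1, was at 801 (control), 624 (contralateral) and 629 (MCAO). Both hemispheres of the occluded animals lay below the control, contralateral at 0.779-fold (0.703 to 0.862) and MCAO at 0.786-fold (0.703 to 0.877). Of the release channel genes, Lrrc8c was at 208 (control), 152 (contralateral) and 124 (MCAO) and Calhm2 at 150.1 (control), 101 (contralateral) and 96.5 (MCAO), both highest in the control. The genes of these paragraphs were named after their values were seen.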
